A study of Mus musculus with 55 samples.

Results

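This comparison set the cerebella of mice carrying a human PON1 transgene of the Q192 form against those of mice labelled Pon1 knockout, after daily chlorpyrifos oxon (CPO) at 0.5 mg/kg/day. Its members were the 5 arrays titled Q192 at 0.5 and the 3 arrays titled KO at 0.5, 8 of 55 arrays in all, read across the 14949 genes tested. All pups were of strain C57Bl/6, were injected under the skin from postnatal day 4 to day 21 and were taken at day 22. The genotypes are written Pon1-/- (KO), tgHuPON1Q192 (Q192), tgHuPON1R192 (R192) and Pon1+/+ (WT) in the labels, and the vehicle was dimethyl sulfoxide (DMSO). The same 2 genotypes were also measured in vehicle (4 arrays each) and at 0.35 mg/kg/day (5 arrays each), and these arrays are used below to see whether a genotype difference at 0.5 was there without that dose. R192 (5 arrays) and WT (3 arrays) at 0.5 are given beside them as levels. The labels do not give the promoter of the transgene, whether the transgenic lines carry the mouse Pon1 gene, or whether each array is a separate animal, so the p-values speak only of the spread among the samples at hand, which may be technical.

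CPO is the active metabolite of the insecticide chlorpyrifos, and it inhibits acetylcholinesterase and other serine hydrolases. PON1, paraoxonase 1, is an esterase made mainly in the liver and carried in plasma on high-density lipoprotein, where it hydrolyses CPO. The Q192 and R192 forms carry glutamine or arginine at a variable position of the human enzyme and differ in how well they hydrolyse CPO. The cerebellum at this age consists mostly of granule neurons, with Purkinje cells as its output neurons and Bergmann glia beside them.

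Each array gave log2 levels by RMA, a method that corrects background, gives all arrays 1 distribution and summarises the probes of a probe set. Cerebellar markers were high on all 8 arrays. The granule neuron receptor gene Gabra6 lay between 12.16 and 13.07 and the Purkinje cell gene Calb1 between 11.62 and 12.46. Neurod6, a marker of forebrain neurons, lay between 5.68 and 6.45, around the level filter of 6.44. Ttr, made by choroid plexus, lay between 11.91 and 13.38 and overlapped between the groups. All 8 arrays had low Xist (5.42 to 5.88) and high Eif2s3y (10.09 to 10.82), the pattern of male tissue. Q192 at 0.5 had 3 arrays of date 1 and 2 of date 2, with 3 description numbers, and KO at 0.5 had 2 and 1, with 2 numbers; no number was shared between these groups.

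Pon1 itself went against the knockout label. Its log2 levels were 9.92, 10.13 and 9.94 on the KO arrays at 0.5 and 10.01, 10.21, 10.12, 10.03 and 10.26 on the Q192 arrays. The groups overlapped, and the difference was +0.14 (SE 0.142, limma adjusted p = 0.615). The 3 WT arrays at 0.5 lay at 5.36, 4.79 and 5.05, far below both. The mean of Pon1, Pon2 and Pon3 at 0.5 was 8.69 in KO, 8.91 in Q192, 8.91 in R192 and 7.48 in WT. WT was also the lowest in vehicle (7.44, against 8.93, 8.78 and 8.92 in KO, Q192 and R192). The same held at 0.35 (7.34, against 8.85, 8.83 and 8.93). No source used here places the probes against the deleted stretch, and a probe beyond that stretch is no check of a knockout. KO therefore stands for arrays with that label, and each direction below carries this doubt.

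Genotype differed in 15 genes at 0.5, of which 8 were higher and 7 lower in Q192 than in KO (limma adjusted p under 0.05). They were 0.1% of the genes tested, with 0.0535% higher and 0.0468% lower. Without adjustment, 3247 genes (21.7%) had a p under 0.05, 1575 (10.5%) higher and 1672 (11.2%) lower. In 3439 genes (23%) the groups did not overlap, 1627 (10.9%) higher and 1812 (12.1%) lower, so a gene whose groups part is common here. In all 15 called genes the groups did not overlap, which the choice of genes by the same contrast favours. Each of the 15 had 1 probe set.

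**Figure D1:**
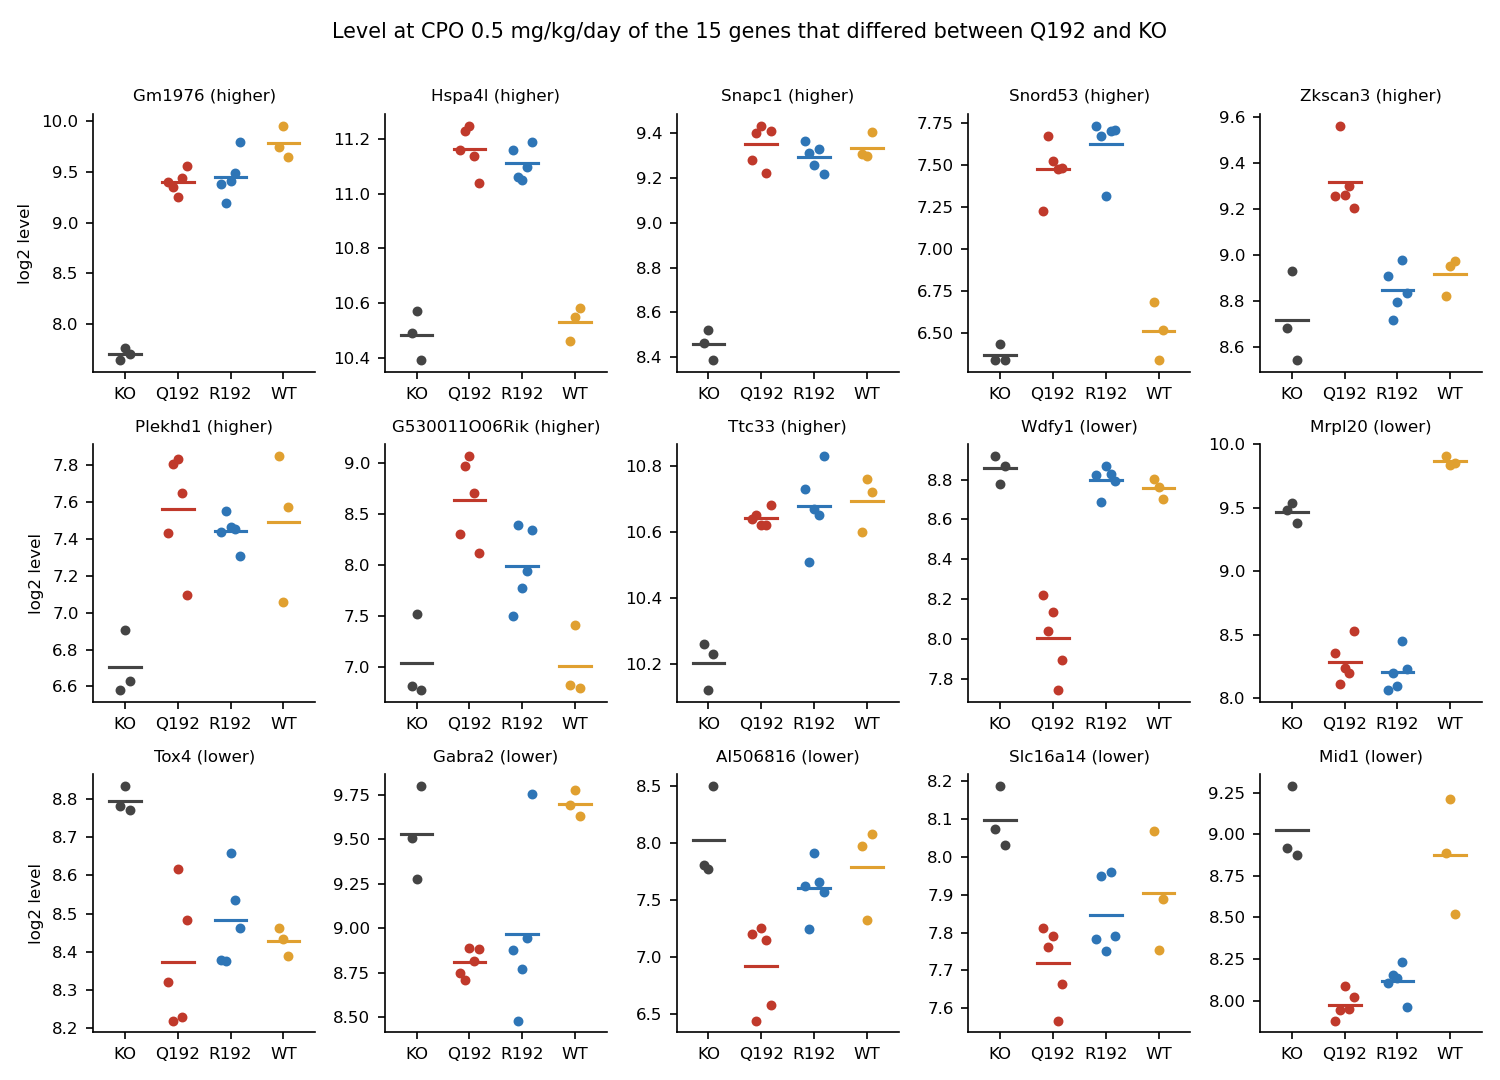
Log2 level of each of the 15 genes on each array at CPO 0.5 mg/kg/day, by genotype; points are arrays, bars are group means, and the vertical axes differ and do not start at 0. KO and Q192 are apart in every panel, while R192 and WT lie with Q192 in some genes and with KO in others.

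The largest rise was in Gm1976, a gene model of unassigned function on chromosome 17. Its log2 levels were 7.65, 7.76 and 7.71 in KO and 9.40, 9.35, 9.25, 9.44 and 9.55 in Q192, a difference of +1.70 (SE 0.243, limma adjusted p = 4.68e-05). R192 at 0.5 (9.45 ± 0.22, SD, n = 5) overlapped Q192, and WT (9.78 ± 0.16, n = 3) lay above it, so KO was the low group. In vehicle the KO arrays spread from 7.71 to 9.10 and the Q192 arrays from 9.10 to 9.45, a difference of +0.80 (adjusted p = 0.32) that did not pass. At 0.35 the difference was +0.98 (adjusted p = 0.04), with KO arrays from 7.63 to 9.58.

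Snapc1, on chromosome 12, encodes a subunit of the complex that recruits RNA polymerases to small nuclear RNA genes. Levels were 8.46, 8.52 and 8.38 in KO against 9.28, 9.40, 9.44, 9.22 and 9.41 in Q192. It rose by 0.90 (SE 0.141, limma adjusted p = 2.21e-04). R192 (9.22 to 9.36) and WT (9.30 to 9.41) at 0.5 both lay within or next to the Q192 range, so again KO stood alone. The difference was +0.51 in vehicle (adjusted p = 0.199, not passing) and +0.58 at 0.35 (adjusted p = 0.036).

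Hspa4l encodes a chaperone of the HSP110 family, which acts as a nucleotide exchange factor for HSP70. It was 10.49, 10.57 and 10.39 in KO and 11.16, 11.23, 11.25, 11.14 and 11.04 in Q192, a difference of +0.68 (SE 0.0982, limma adjusted p = 4.68e-05). Here the transgenic lines parted from the rest, since R192 lay at 11.05 to 11.19 and WT at 10.46 to 10.58, within the KO range or next to it. Hspa4l also passed in vehicle (+0.50, adjusted p = 0.00546) and at 0.35 (+0.39, adjusted p = 0.0423).

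Snord53, a C/D box small nucleolar RNA, a class that guides methylation of ribosomal RNA, had the same order of genotypes. Its levels were 6.34, 6.43 and 6.34 in KO, all below the level filter, and 7.23, 7.67, 7.52, 7.48 and 7.48 in Q192. The difference was +1.11 (SE 0.186, limma adjusted p = 7.11e-04). R192 lay at 7.31 to 7.73 and WT at 6.34 to 6.68. It passed in vehicle (+0.81, adjusted p = 0.0351) and not at 0.35 (+0.57, adjusted p = 0.254). Without KO 0.35 replicate 5 (7.90, the other 4 at 6.25 to 6.62) it passed there too (+0.86, limma adjusted p = 4.49e-06). That array lay on the Q192 side in this gene, so leaving it out widens the difference by itself and is no separate support.

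Mrpl20, which encodes a protein of the large subunit of the mitochondrial ribosome, was the clearest fall shared with R192. Levels were 9.49, 9.54 and 9.38 in KO and 8.36, 8.12, 8.24, 8.20 and 8.53 in Q192, a difference of -1.18 (SE 0.188, limma adjusted p = 3.10e-04). R192 had 8.21 ± 0.15 (SD, n = 5) and WT 9.87 ± 0.04 (n = 3), above KO. The difference was as large in vehicle (-1.33, adjusted p = 1.51e-05) and was -0.72 at 0.35 (adjusted p = 0.055, not passing). It was -1.04 without KO 0.35 replicate 5 (adjusted p = 2.67e-08), an array that lay on the Q192 side here, so its removal widens the difference by itself.

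Wdfy1 encodes a FYVE-domain protein of early endosomes and had the smallest adjusted p. KO arrays lay at 8.92, 8.78 and 8.87, and Q192 arrays at 8.22, 8.04, 8.14, 7.74 and 7.90. It fell by 0.85 (SE 0.11, limma adjusted p = 7.39e-06). R192 (8.69 to 8.87) and WT (8.70 to 8.80) lay with KO, so Q192 was the group apart. The difference passed in vehicle (-0.55, adjusted p = 0.00546) and at 0.35 (-0.46, adjusted p = 0.033). At 0.5 minus vehicle it changed by -0.30 (SE 0.152, adjusted p = 0.177).

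Zkscan3, a zinc finger gene with a KRAB and a SCAN domain whose product represses autophagy genes, had its highest mean in Q192. KO had 8.69, 8.93 and 8.54, Q192 9.26, 9.56, 9.26, 9.30 and 9.21, R192 8.72 to 8.98 and WT 8.82 to 8.98. The rise was 0.60 (SE 0.113, limma adjusted p = 0.00528). It was +0.46 at 0.35 (adjusted p = 0.0383) and +0.09 in vehicle (adjusted p = 0.685), and the change between vehicle and 0.5 was +0.52 (SE 0.156, adjusted p = 0.0786). Without KO 0.5 replicate 3 it did not pass (+0.50, adjusted p = 0.227).

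A pair of called genes are neighbours at the end of the X chromosome and differed in opposite directions. Mid1, an E3 ubiquitin ligase gene that crosses the boundary of the region shared by the X and Y chromosomes, was 8.92, 9.29 and 8.88 in KO and 7.88, 7.94, 8.09, 7.95 and 8.02 in Q192, a difference of -1.05 (SE 0.231, limma adjusted p = 0.0364). G530011O06Rik, a gene model of unassigned function, was 6.81, 7.52 and 6.76 in KO and 8.31, 8.98, 9.07, 8.71 and 8.11 in Q192, a difference of +1.60 (SE 0.33, adjusted p = 0.0237). In order of start position they are next to each other among the tested genes, with 2 genes of the gene table between them. That order does not show whether the genes overlap. Hccs on the other side of Mid1 had +0.18 (adjusted p = 0.179). In vehicle both passed, with -1.18 (adjusted p = 0.00532) for Mid1 and +2.03 (adjusted p = 2.07e-04) for G530011O06Rik. At 0.35 G530011O06Rik passed (+1.70, adjusted p = 0.00195) and Mid1 did not (-0.57, adjusted p = 0.492). R192 lay near Q192 in Mid1 (7.96 to 8.23) and between the groups in G530011O06Rik (7.50 to 8.39), while WT lay with KO in both (8.52 to 9.21 and 6.79 to 7.41).

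The RefSeq promoter table of build GRCm38.p6 lists G530011O06Rik at 1 place on X and 1 on Y, so its probe set may read both and its level is uncertain by locus. Both windows of 300 bases are shown because they bear on this, the X locus at chrX:169978868-169979167 and the Y locus at chrY:90755001-90755300, both on the minus strand. Capitals mark letters without a match in the other window, with offset ends included. Of 296 aligned letters, 292 (98.6%) were identical, and 2 positions inside the alignment were gaps.
G530011O06Rik, X locus: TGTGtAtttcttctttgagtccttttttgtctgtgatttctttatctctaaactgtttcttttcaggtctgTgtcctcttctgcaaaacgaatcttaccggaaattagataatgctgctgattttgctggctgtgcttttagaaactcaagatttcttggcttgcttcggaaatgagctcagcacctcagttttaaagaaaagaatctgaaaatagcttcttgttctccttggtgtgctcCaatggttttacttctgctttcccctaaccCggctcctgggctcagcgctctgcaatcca
G530011O06Rik, Y locus: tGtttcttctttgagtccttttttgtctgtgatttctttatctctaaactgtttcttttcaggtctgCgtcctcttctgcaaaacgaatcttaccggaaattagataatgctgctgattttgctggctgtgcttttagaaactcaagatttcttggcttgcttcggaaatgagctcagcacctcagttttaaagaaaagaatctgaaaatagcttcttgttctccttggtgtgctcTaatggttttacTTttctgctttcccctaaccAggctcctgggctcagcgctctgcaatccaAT

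Gabra2 encodes the alpha-2 subunit of the GABA-A receptor, the main inhibitory receptor of the brain. KO arrays lay at 9.51, 9.28 and 9.80 and Q192 arrays at 8.75, 8.71, 8.89, 8.81 and 8.88. It fell by 0.74 (SE 0.157, limma adjusted p = 0.0275). The difference was -1.14 in vehicle (adjusted p = 1.24e-05) and -1.08 at 0.35 (adjusted p = 3.51e-06), and its change between vehicle and 0.5 was +0.40 (SE 0.217, adjusted p = 0.211). R192 spread from 8.48 to 9.75 and overlapped both groups, while WT lay at 9.63 to 9.78. Among 35 tested glutamate and GABA receptor genes it was the 1 that passed.

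Plekhd1, a gene with a pleckstrin homology and a coiled-coil domain, was 6.58, 6.91 and 6.63 in KO and 7.43, 7.81, 7.83, 7.65 and 7.09 in Q192 (+0.86, SE 0.177, limma adjusted p = 0.0233). It passed in vehicle (+1.23, adjusted p = 1.51e-05) and at 0.35 (+0.86, adjusted p = 0.00425), and R192 (7.31 to 7.55) and WT (7.06 to 7.85) lay within the Q192 range or next to it. AI506816, a gene model of unassigned function, was 7.81, 7.77 and 8.50 in KO against 6.44 to 7.26 in Q192, a difference of -1.13 (SE 0.242, adjusted p = 0.0332). It was -0.63 in vehicle (adjusted p = 0.418) and -1.03 at 0.35 (adjusted p = 0.0265). R192 (7.25 to 7.92) overlapped both groups, and WT (7.32 to 8.08) overlapped KO.

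The other 3 called genes were small in size and did not pass in vehicle or at 0.35. Ttc33, a tetratricopeptide repeat gene, rose by 0.43 (SE 0.0944, limma adjusted p = 0.0342), from 10.26, 10.12 and 10.23 in KO to between 10.62 and 10.68 in Q192, with -0.06 in vehicle and +0.08 at 0.35. Slc16a14, of the monocarboxylate transporter family, fell by 0.37 (SE 0.0811, adjusted p = 0.0342), from 8.07, 8.19 and 8.03 to between 7.57 and 7.81, with -0.01 in vehicle. Tox4, which encodes a nuclear protein with an HMG box, fell by 0.42 (SE 0.0876, adjusted p = 0.0275), from 8.78, 8.83 and 8.77 to between 8.22 and 8.62, with -0.11 in vehicle and -0.17 at 0.35. In all 3 genes R192 and WT at 0.5 had means nearer to Q192 than to KO.

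Read over the genotypes at 0.5, the 15 genes fell into 3 patterns of means, given as a description with no test. In 6 genes (Gm1976, Snapc1, Plekhd1, Tox4, Ttc33 and Slc16a14) the means of both R192 and WT were nearer to Q192. KO overlapped neither of them, except in Slc16a14, where WT overlapped both KO and Q192. In 6 genes (Hspa4l, Mrpl20, Snord53, G530011O06Rik, Gabra2 and Mid1) R192 was nearer to Q192 and WT to KO. In 3 genes (Wdfy1, Zkscan3 and AI506816) both were nearer to KO. Q192 overlapped neither of them, except in AI506816, where R192 overlapped both KO and Q192.

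**Figure D2:**
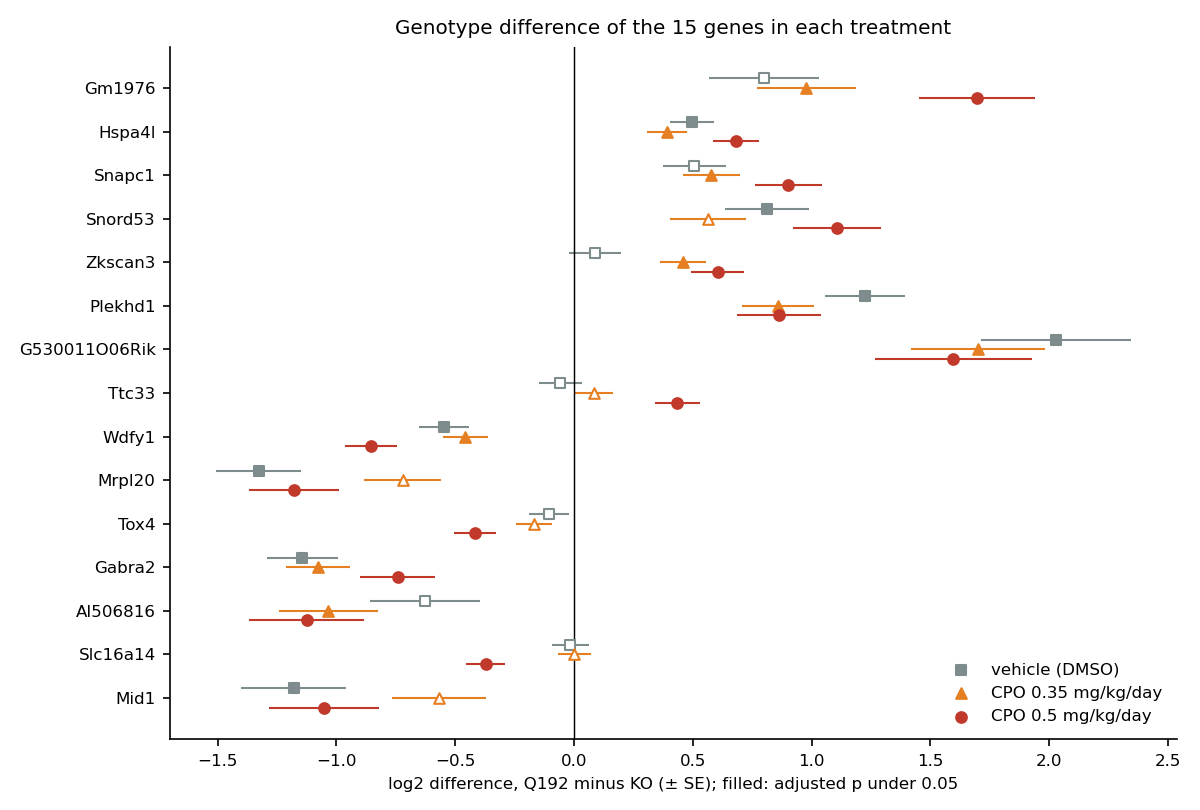
Log2 difference, Q192 minus KO, of the 15 genes in vehicle, at CPO 0.35 and at CPO 0.5 mg/kg/day, with standard errors from the limma fit; filled symbols passed at an adjusted p under 0.05. For 14 of the 15 genes the sign at 0.5 is also the sign in vehicle, and Ttc33, Slc16a14 and Tox4 are filled at 0.5 alone.

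Most of the 15 genes differed in the same direction without that dose. The comparisons in vehicle and at 0.35 use other arrays, although 1 fit estimates the spread for all. In vehicle 15 genes passed (0.1% of those tested), of which 8 were among the 15 at 0.5, or 53.3% of each list. At 0.35, 10 genes passed (0.0669%), of which 9 were among them, or 60% of the list at 0.5 and 90% of that at 0.35. Without KO 0.35 replicate 5, 11 of the 15 passed at 0.35, Mrpl20 and Snord53 being the added genes. That array lay on the Q192 side in both of these, so the higher count is no separate support. All of these shared genes differed in the same direction. Wdfy1, Hspa4l, Plekhd1, G530011O06Rik and Gabra2 passed in all 3 treatments. Over all 15 genes the direction was the same as at 0.5 in 14 in vehicle and in 14 at 0.35, with 11 and 13 at an unadjusted p under 0.05, a share that was 11.8% and 5.93% over all genes.

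No gene passed in the test of whether the genotype difference itself changed with dose. By limma 0 genes passed for 0.5 against vehicle (smallest adjusted p = 0.0786), while 4231 (28.3%) had an unadjusted p under 0.05. Among those of smallest p were Slc5a3, the sodium-dependent myo-inositol transporter (+0.64), the heterochromatin protein gene Cbx5 (+0.51), Ccdc138 (+0.57), Faah, a serine hydrolase that breaks down anandamide (-0.65), Kndc1 (-0.63) and Prkab1, a subunit of AMP-activated kinase (-0.51), all with adjusted p = 0.0786. Many other genes shared this adjusted p, among them the called genes Zkscan3 (+0.52), Ttc33 (+0.49) and Slc16a14 (-0.36). Slc5a3 was 8.92, 8.77 and 9.10 in KO and 9.26 to 9.59 in Q192 at 0.5 (+0.49, adjusted p = 0.0547), just short of passing there. The count depended on single arrays, being 905 without KO 0.35 replicate 5, 1652 without KO vehicle replicate 2, 779 without KO vehicle replicate 3 and 2 without Q192 vehicle replicate 3.

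Against 0.35, 0 genes passed by limma (smallest adjusted p = 0.2), with 1456 (9.74%) at an unadjusted p under 0.05. The genes of smallest p on the lower side were the immediate early genes Nr4a1, an orphan nuclear receptor, Npas4, a neuronal transcription factor, and Fos. Nr4a1 had a difference of -0.92 at 0.5 and +0.74 at 0.35, Npas4 of -0.45 and +0.39, and Fos of -0.53 and +0.88. On the higher side were the microRNA precursor Mirlet7a-2 (+0.48 and -0.50), Slc5a3 and Nebl. None of these genes passed at either dose, the smallest adjusted p being that of Slc5a3 at 0.5 (0.0547) and of Fos at 0.35 (0.0871).

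Immediate early genes, a class induced fast by neuronal activity, were lower in Q192 at 0.5 in 32 of 36 tested members, with a median difference of -0.24 against -0.01 over all genes tested. None passed, and 15 (41.7%) had an unadjusted p under 0.05 against 21.7% of all genes, a count that was 6 without KO 0.5 replicate 3. Gadd45g, a stress sensor gene, was 8.70, 8.82 and 8.44 in KO and 8.25, 8.04, 8.26, 7.99 and 8.22 in Q192 (-0.49, SE 0.123, limma adjusted p = 0.0695). Per1, a clock gene that also responds to activity, was 8.56, 8.76 and 8.62 against 8.12, 8.07, 7.94, 8.06 and 8.09 (-0.59, SE 0.172, adjusted p = 0.0929). The groups did not overlap in either gene, as in 23% of all genes. Nr4a1 was 8.30, 8.42 and 9.39 in KO against 7.78, 7.73, 7.68, 7.77 and 8.08 (-0.92, SE 0.278, adjusted p = 0.0981). Npas4 was 6.91, 7.09 and 7.45 against 6.62 to 6.79 (-0.45, SE 0.142, adjusted p = 0.0983). In both genes KO replicate 3 was the highest array and the other KO arrays were still above every Q192 array. Fos was 7.66, 7.56 and 8.60 against 7.24 to 7.67 and overlapped (-0.53, adjusted p = 0.202). The list's median was +0.10 in vehicle and +0.15 at 0.35, where 35 of 36 members were higher. Of the list at 0.35, 0 passed by limma, with 10 of 36 at an unadjusted p under 0.05 against 5.93% of all genes. Its mean level at 0.5 was 8.03 ± 0.09 (SD, n = 3) in KO, 7.74 ± 0.06 (n = 5) in Q192, 7.78 ± 0.10 (n = 5) in R192 and 7.95 ± 0.12 (n = 3) in WT.

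**Figure D3:**
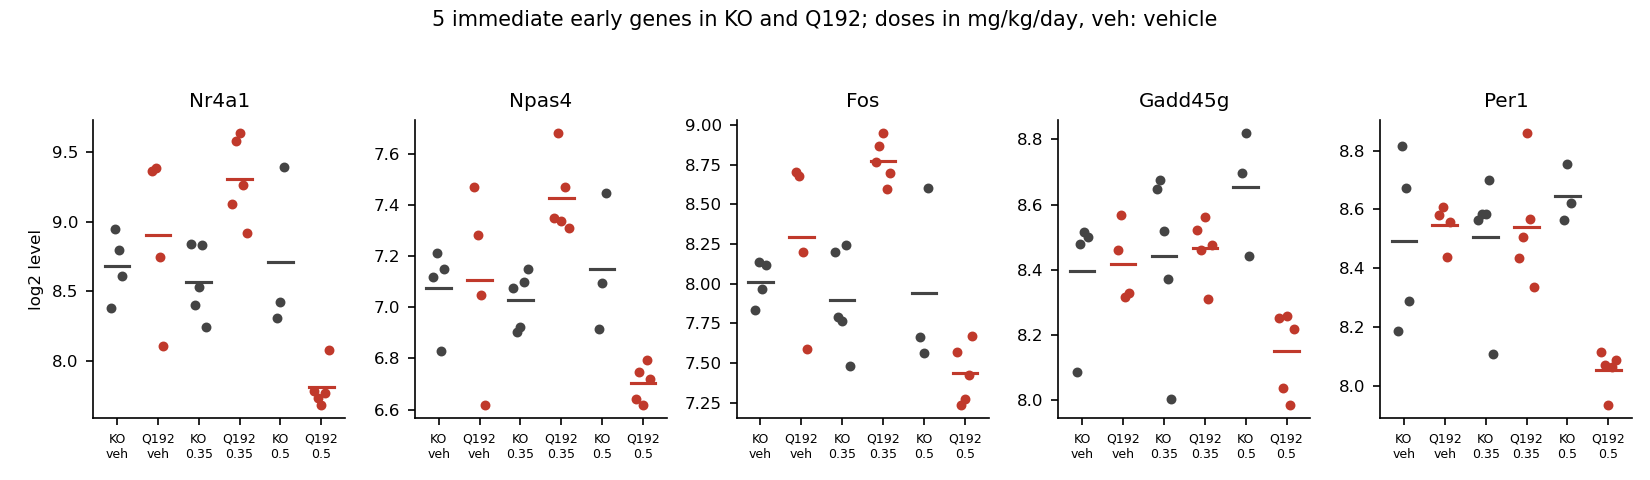
Log2 levels of 5 immediate early genes on each KO and Q192 array in vehicle, at CPO 0.35 and at CPO 0.5 mg/kg/day; points are arrays and bars are group means. Nr4a1, Npas4 and Fos are higher in Q192 than in KO at 0.35 and lower at 0.5 in their means, differences that did not pass.

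Immediate early promoters often hold the cyclic AMP response element, whose core letters are TGACG, and the promoters of Nr4a1, Npas4 and Fos, the genes of smallest p on the lower side for the change between the doses, are shown for that reason, with that of the called gene Snapc1 beside them. The windows run from 250 bases before to 50 after each RefSeq start in build GRCm38.p6. They lie at chr12:85473640-85473939 (Fos, plus strand), chr15:101266596-101266895 (Nr4a1, plus strand), chr19:4989922-4990221 (Npas4, minus strand) and chr12:73964247-73964546 (Snapc1, plus strand). Capitals mark TGACG or its reverse complement CGTCA.
Fos: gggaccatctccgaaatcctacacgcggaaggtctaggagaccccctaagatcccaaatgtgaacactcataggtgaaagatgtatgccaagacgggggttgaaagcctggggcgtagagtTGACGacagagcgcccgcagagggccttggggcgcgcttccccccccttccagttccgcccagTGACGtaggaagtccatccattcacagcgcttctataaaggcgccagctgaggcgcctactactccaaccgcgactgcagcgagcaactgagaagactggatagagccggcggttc
Nr4a1: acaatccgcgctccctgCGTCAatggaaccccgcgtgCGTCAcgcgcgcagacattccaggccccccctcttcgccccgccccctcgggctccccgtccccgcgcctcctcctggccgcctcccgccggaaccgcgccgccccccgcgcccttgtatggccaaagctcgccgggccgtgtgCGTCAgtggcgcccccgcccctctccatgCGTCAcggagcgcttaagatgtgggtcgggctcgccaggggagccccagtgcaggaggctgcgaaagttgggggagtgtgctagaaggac
Npas4: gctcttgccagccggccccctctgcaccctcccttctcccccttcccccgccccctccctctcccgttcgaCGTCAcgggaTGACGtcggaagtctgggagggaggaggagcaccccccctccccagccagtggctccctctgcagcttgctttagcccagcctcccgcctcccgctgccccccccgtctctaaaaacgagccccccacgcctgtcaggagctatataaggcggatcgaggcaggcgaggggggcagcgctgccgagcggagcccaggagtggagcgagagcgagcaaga
Snapc1: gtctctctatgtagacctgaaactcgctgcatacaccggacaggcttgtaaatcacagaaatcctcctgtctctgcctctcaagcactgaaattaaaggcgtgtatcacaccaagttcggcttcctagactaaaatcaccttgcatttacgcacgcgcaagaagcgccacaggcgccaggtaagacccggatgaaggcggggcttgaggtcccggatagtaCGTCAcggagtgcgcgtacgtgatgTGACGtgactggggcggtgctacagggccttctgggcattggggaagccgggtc

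Nr4a1 held 4 such matches and the other 3 promoters held 2 each. At least 1 match was found in 20 of 28 immediate early genes with a promoter in the table (71.4%), against 32.9% of 11785 tested genes and 23% of all 27025 genes in the table. By promoter it was 24 of 42 (57.1%), against 28.5% of 14984 promoters of tested genes and 20.8% of all 32851 promoters. For the called genes it was 4 of 12 (33.3%), near that background. The full palindrome TGACGTCA, which holds both of the shorter matches, was in 3 of the 28 immediate early genes, in 0 of the 12 called genes and in 3.28% of the tested genes. A match describes letters only and is not a site of binding.

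Granule neuron markers were lower in Q192 in all 25 tested members, from -0.92 to -0.05, with a median of -0.44. Of these, 16 (64%) had an unadjusted p under 0.05, against 21.7% of all genes. None passed. Fat2, a giant cadherin of granule neurons, was 10.06, 10.63 and 10.31 in KO and 9.15, 9.79, 9.60, 9.29 and 9.16 in Q192 (-0.92, SE 0.314, limma adjusted p = 0.105). Tiam1, a Rac exchange factor (-0.73, adjusted p = 0.0981), and Rbfox3, the neuronal nuclear antigen (-0.66, adjusted p = 0.101), had the smallest p. The mean level of the granule neuron list was 10.75, 11.06 and 10.76 on the KO arrays and 10.21, 10.54, 10.58, 10.34 and 10.28 on the Q192 arrays, without overlap. R192 (10.47 ± 0.12, SD, n = 5) and WT (10.31 ± 0.47, n = 3) at 0.5 were nearer to Q192. In vehicle and at 0.35 the list's median was +0.04 and +0.01. The mean level was 10.85 ± 0.29 in WT at 0.35 (n = 6), beside 10.86 in KO at 0.5, and 10.40 ± 0.14 in R192 in vehicle (n = 4), beside 10.39 in Q192 at 0.5. Within the 6 WT arrays in vehicle alone the list mean ran from 9.38 to 11.23. A smaller share of granule neurons in the tissue taken and less of these RNAs per cell cannot be told apart in bulk tissue.

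Purkinje cell markers were lower in 18 of 21 (median -0.36), and 8 (38.1%) had an unadjusted p under 0.05 against 21.7% of all genes. The direction did not hold with the granule neuron mean as a covariate, where 12 of 21 were higher (median +0.03). That mean itself parted the groups without overlap. The fit therefore takes out part of the contrast and cannot settle the direction of Purkinje cell markers. The smallest p were those of Dner, a Notch ligand (-0.69, limma adjusted p = 0.0983), and of Itpka, an inositol trisphosphate kinase (-0.56, adjusted p = 0.0999). None passed. Pcp2, specific to these cells in the cerebellum, was 10.48, 10.82 and 10.20 in KO and 9.93 to 10.19 in Q192 (-0.42, adjusted p = 0.261). Synaptic vesicle genes were lower in 29 of 35 (median -0.31), with 19 (54.3%) at an unadjusted p under 0.05, among them the fusion factor Napa (-0.37, adjusted p = 0.0724) and the calcium sensor Syt1 (-0.32, adjusted p = 0.0968). On each of these lists KO at 0.5 stood above the other 3 genotypes at 0.5 in its mean. Groups of other treatments came near these levels. Purkinje cell means were 10.14 in KO at 0.5, 10.07 in WT at 0.35 and 9.69 in R192 in vehicle. Synaptic vesicle means in vehicle were 10.49 in Q192, 10.48 in WT, 10.35 in KO and 10.21 in R192. For the synaptic vesicle cycle the mean at 0.5 was 10.55 ± 0.01 (SD, n = 3) in KO, against 10.30 ± 0.09 in Q192 (n = 5), 10.26 ± 0.04 in R192 (n = 5) and 10.23 ± 0.14 in WT (n = 3).

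Cytosolic ribosomal protein genes were higher in Q192 in 53 of 55 tested members, with a median of +0.21. Of these, 34 (61.8%) had an unadjusted p under 0.05, against 21.7% of all genes. None passed. Rpl6 (+0.35, SE 0.0878, limma adjusted p = 0.0683) and Rpl23 (+0.35, SE 0.0885, adjusted p = 0.0695) of the large subunit had the smallest p. Rpl6 had 3 probe sets and Rpl23 had 2, and these values come from the probe set of highest mean alone. The list's mean level was 10.78, 10.76 and 10.75 in KO and between 10.94 and 11.05 in Q192, again with R192 (10.94 ± 0.06, SD, n = 5) and WT (10.97 ± 0.04, n = 3) beside Q192. Its median was -0.07 in vehicle and +0.16 at 0.35. Of the 79 members, 24 had no probe set with 1 symbol, and many ribosomal protein genes have processed pseudogenes, so their levels are uncertain. Respiratory chain genes were higher in 60 of 73 (median +0.13), and 21 (28.8%) had an unadjusted p under 0.05 against 21.7% of all genes, a count that was 4 without KO 0.5 replicate 3. They were led by Cox7a2l, a supercomplex factor (+0.44, adjusted p = 0.0732), and Ndufs5 of complex I (+0.34, adjusted p = 0.0778), with 0 passing.

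**Figure D4:**
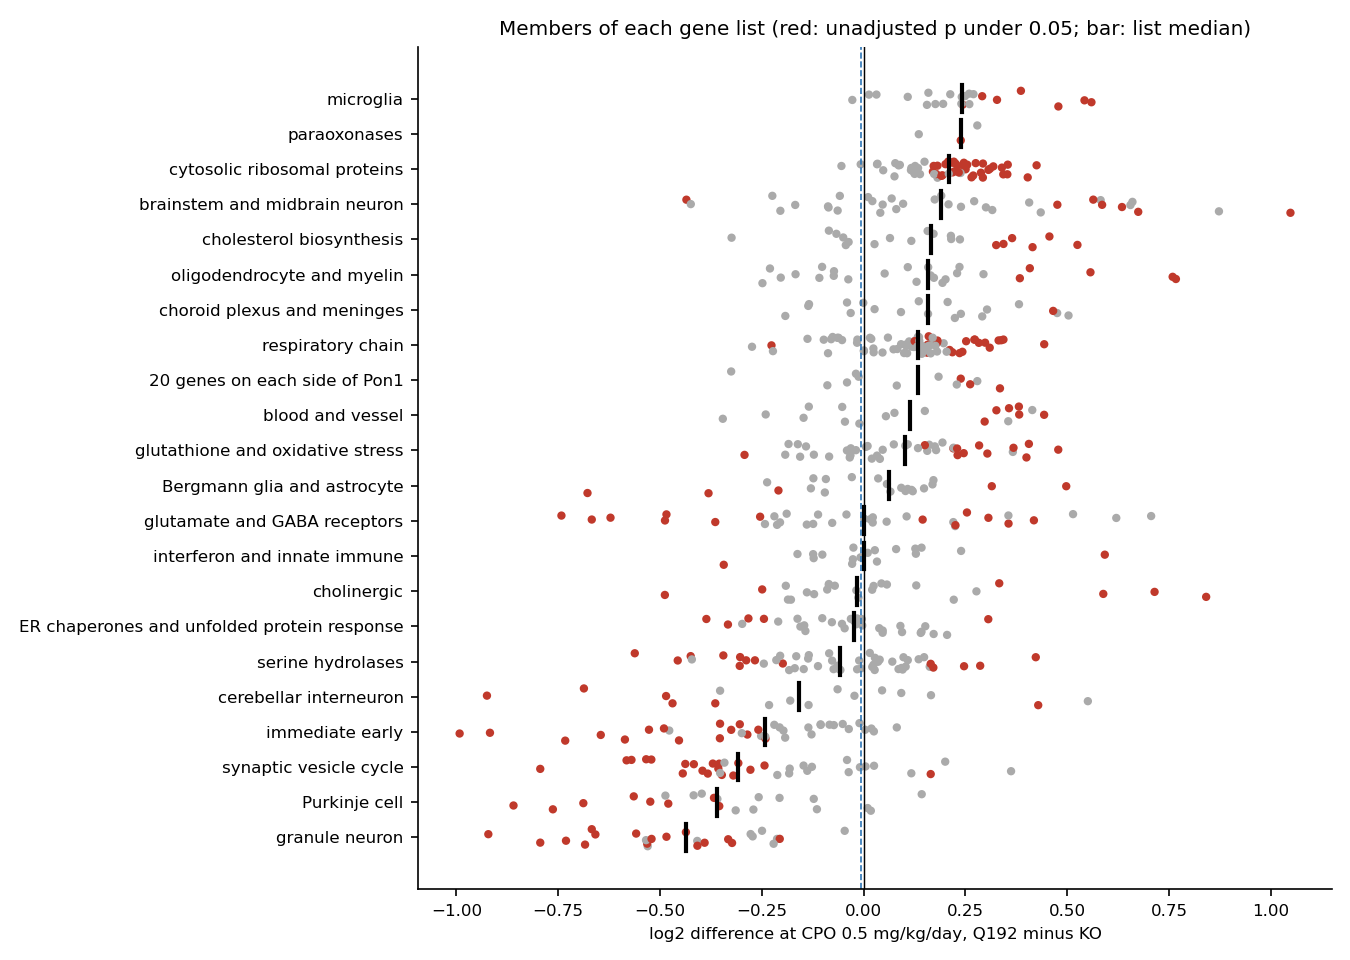
Log2 difference at CPO 0.5 mg/kg/day, Q192 minus KO, of each tested member of the gene lists; red points had an unadjusted p under 0.05, black bars are list medians and the dashed line is the median of all genes tested (-0.01). Granule neuron, Purkinje cell, synaptic vesicle and immediate early genes lie to the left, and ribosomal protein and microglia genes to the right.

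Microglia genes were higher in 21 of 22 (median +0.24), with 7 (31.8%) at an unadjusted p under 0.05 against 21.7% of all genes, led by P2ry13, a purine receptor (+0.54, SE 0.15, limma adjusted p = 0.0792), and Fcrls (+0.56, adjusted p = 0.111). None passed, and their median was +0.15 in vehicle and +0.06 at 0.35. Oligodendrocyte genes were higher in 16 of 25 (median +0.16), a sign that turned without KO 0.5 replicate 2 (-0.07, 10 of 25 higher), with Aspa, aspartoacylase (+0.77, adjusted p = 0.0981), and Ermn (+0.76, adjusted p = 0.107) ahead, and Bergmann glia and astrocyte genes in 13 of 22 (median +0.06). Of the latter, the calcium-binding S100b had +0.31 (adjusted p = 0.0984) and Gdf10, a growth factor of Bergmann glia, -0.68 (adjusted p = 0.171). Brainstem and midbrain neuron markers, from tissue next to the cerebellum, were higher in 26 of 35 (median +0.19), and 7 (20%) had an unadjusted p under 0.05, below the 21.7% of all genes. Their mean level ran from 7.47 to 7.92 in KO and from 7.85 to 8.18 in Q192, and the transcription factor Pou4f1 (+0.48, adjusted p = 0.0983) and Sncg, a synuclein (+1.05, adjusted p = 0.112), had the smallest p. Choroid plexus and meninges genes were higher in 13 of 19 (median +0.16) but lower in 16 of 19 on date 2 arrays alone (median -0.18), with the proteoglycan Dcn at +0.47 (adjusted p = 0.192) and Kcne2, a potassium channel subunit, at +0.48 (adjusted p = 0.26). Fits with a list mean as a covariate moved several of these values. With the brainstem mean 16 genes passed, 12 of them among the 15, and with the granule neuron mean 9 passed, all among the 15. With the brainstem mean the median was -0.08 for oligodendrocyte, -0.11 for Bergmann glia, +0.11 for microglia, -0.15 for Purkinje cell and -0.27 for granule neuron genes. With the granule neuron mean it was -0.08 for oligodendrocyte, -0.05 for Bergmann glia, +0.05 for microglia (1 gene at an unadjusted p under 0.05), -0.02 for brainstem, -0.18 for synaptic vesicle, -0.14 for immediate early and +0.12 for ribosomal genes. In that fit 1306 genes of all had an unadjusted p under 0.05, against 3247 in the main fit. The granule neuron mean did not overlap between the groups, so this covariate also takes out part of the contrast.

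**Figure D5:**
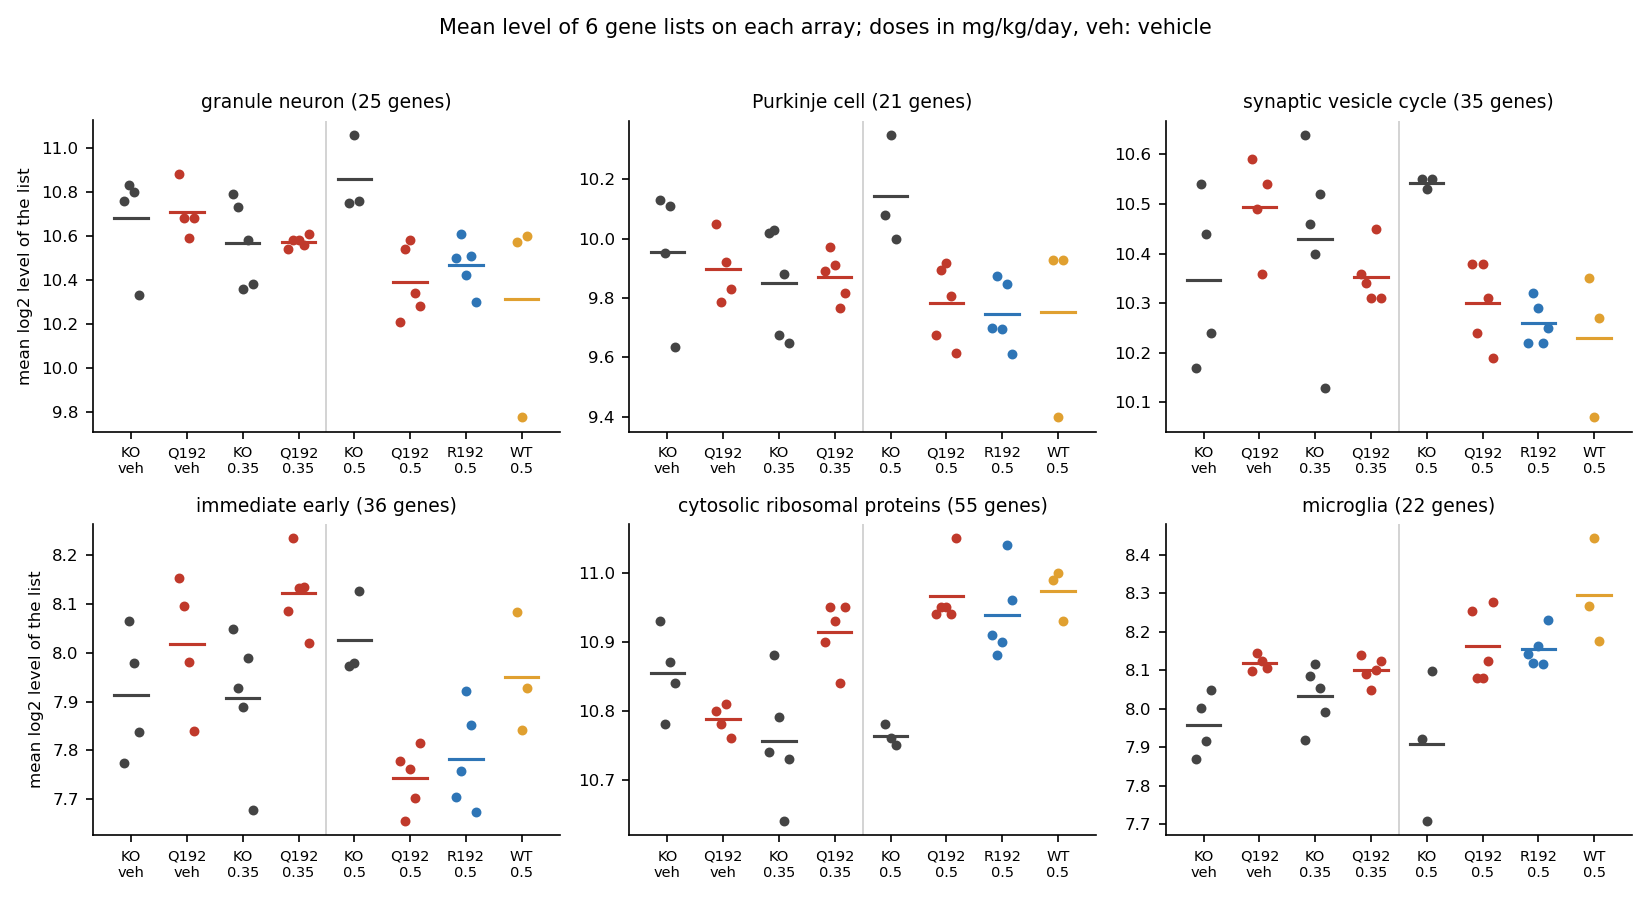
Mean log2 level of 6 gene lists on each array of KO and Q192 in 3 treatments and of R192 and WT at CPO 0.5 mg/kg/day; points are arrays, bars are group means, and the axes do not start at 0. At 0.5 the KO arrays lie above all Q192 arrays in the granule neuron, Purkinje cell, synaptic vesicle and immediate early lists and below them in the ribosomal list.

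The direct molecular targets and hydrolases of CPO showed no passing difference in the main fit. With only the 8 compared arrays 8 of 52 serine hydrolase and 1 of 24 cholinergic genes passed. With array quality weights these counts were 15 and 3. Ache, acetylcholinesterase, was 8.99, 8.34 and 9.14 in KO and 8.24 to 9.05 in Q192 (-0.19, SE 0.226, limma adjusted p = 0.672), and Bche, butyrylcholinesterase, was 7.38, 6.97 and 7.39 against 7.34 to 7.71 (+0.33, SE 0.16, adjusted p = 0.214). Both overlapped between the groups. Pon2, an intracellular paraoxonase, was 9.57, 9.46 and 9.31 against 9.62 to 9.82 (+0.24, SE 0.102, adjusted p = 0.169). Its groups did not overlap, as in 23% of all genes. Pon3 had +0.28 (adjusted p = 0.328). Of 24 tested cholinergic genes 11 were higher and 13 lower (median -0.02), with Chrnb2, a nicotinic receptor subunit, at -0.49 (adjusted p = 0.0986) and Chrnb4, another, at -0.25 (adjusted p = 0.122). Of 52 serine hydrolase genes 22 were higher and 30 lower (median -0.06), with Esd, esterase D, at +0.42 (adjusted p = 0.0683) and Faah at -0.42 (adjusted p = 0.0709). Of 12 tested genes among the 20 on each side of Pon1 on chromosome 6, 7 were higher and 5 lower (median +0.13), with the vesicle transport gene Bet1 at +0.33 (adjusted p = 0.161) and the proteasome subunit Sem1 at +0.26 (adjusted p = 0.166).

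Stress and metabolic lists held no passing gene in the main fit either. Endoplasmic reticulum chaperone and unfolded protein response genes were higher in 11 and lower in 20 of 31 (median -0.02), with Syvn1, a ubiquitin ligase of that response, at -0.39 (limma adjusted p = 0.0986) and the stress kinase Eif2ak3 at -0.33 (adjusted p = 0.1). Glutathione and oxidative stress genes were higher in 28 of 41 (median +0.10), with Gstm5 at +0.48 (adjusted p = 0.0931) and Gsr, glutathione reductase, at -0.29 (adjusted p = 0.0981). Cholesterol biosynthesis genes were higher in 14 of 20 (median +0.16, but +0.02 without KO 0.5 replicate 2 and -0.05 on date 2 arrays alone), with Sc5d at +0.36 (adjusted p = 0.0722) and Idi1 at +0.52 (adjusted p = 0.107), both enzymes of the pathway. Interferon and innate immune genes were higher in 9 and lower in 9 of 18, with the immunoproteasome gene Psmb8 at -0.34 (adjusted p = 0.0709) and Serpina3n, a protease inhibitor, at +0.59 (adjusted p = 0.169). Cerebellar interneuron markers were lower in 11 of 16 (median -0.16), with Gad1, the GABA-synthesising enzyme, at -0.49 (adjusted p = 0.101) and Nxph1, a neurexin ligand, at +0.43 (adjusted p = 0.117). Blood and vessel genes were higher in 11 of 18 (median +0.11), with the endothelial adhesion gene Pecam1 at +0.33 (adjusted p = 0.0981) and Itm2a at +0.38 (adjusted p = 0.113).

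The groups also parted on the first principal axis of all genes, which held 27.5% of the variance. On it the KO arrays at 0.5 scored -12.9, -2.70 and -16.6 and the Q192 arrays -2.28, 14.6, 5.04, 3.36 and 6.36, without overlap. With this axis as a covariate, an alternative chosen after seeing the data, the median was -0.10 for synaptic vesicle genes (9 at an unadjusted p under 0.05), -0.10 for immediate early genes (9), -0.38 for granule neuron genes (7), -0.37 for Purkinje cell genes (5), -0.02 for interneuron markers (5), +0.17 for ribosomal genes (21) and +0.34 for oligodendrocyte genes (17, with 25 of 25 higher). Over all genes that count was 2048.

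Leaving out each of the 8 arrays in turn kept the sign of the list medians that were largest, at +0.16 to +0.32 for microglia, -0.51 to -0.41 for granule neuron, -0.44 to -0.29 for Purkinje cell, -0.32 to -0.26 for synaptic vesicle, -0.26 to -0.16 for immediate early and +0.19 to +0.23 for ribosomal genes. The counts at an unadjusted p under 0.05 moved more. The count over all genes was 1901 without KO 0.5 replicate 3, and in that fit the list counts were 8 for granule neuron, 11 for synaptic vesicle, 6 for immediate early, 22 for ribosomal and 4 for respiratory chain genes, whose median was then +0.09. Without KO 0.5 replicate 2 they were 8 for granule neuron, 5 for Purkinje cell, 4 for microglia and 3 for brainstem genes, with 2768 over all genes. Without Q192 0.5 replicate 1 the count was 10 for granule neuron genes, with 3139 over all genes. Without KO 0.5 replicate 2 the medians of the oligodendrocyte (-0.07) and Bergmann glia (-0.05) lists turned sign, and those of the brainstem (+0.07), cholesterol (+0.02), glutathione (+0.04) and choroid plexus (+0.08) lists came near 0. Without Q192 0.5 replicate 1 the medians were +0.08 for oligodendrocyte, +0.03 for Bergmann glia, +0.07 for choroid plexus, +0.05 for blood and vessel and +0.05 for glutathione genes. Over the 8 fits the medians of the cholinergic, serine hydrolase, receptor, endoplasmic reticulum and interferon lists lay on both sides of 0.

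With arrays of date 1 and date 2 alone the granule neuron median was -0.45 and -0.45, and the ribosomal median +0.17 and +0.24. The choroid plexus list had +0.34 on date 1 and -0.18 on date 2, where 16 of 19 genes were lower, and the cholesterol list +0.30 and -0.05. The oligodendrocyte median was +0.22 on date 1 and +0.01 on date 2, and that of microglia +0.31 and +0.11. With each array centred on its median, the granule neuron, Purkinje cell, synaptic vesicle, immediate early and ribosomal medians kept their signs.

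The 15 calls differed in how much they rested on single arrays. Gm1976, Hspa4l, Mrpl20, Snapc1, Snord53 and Wdfy1 passed in all 8 fits that left out 1 array of the comparison, and Zkscan3 in 7. The others passed in fewer, AI506816 in 5, G530011O06Rik and Plekhd1 in 4, Gabra2 in 3, Tox4, Ttc33 and Slc16a14 in 2 and Mid1 in 1. Without KO 0.5 replicate 3 the count was 7, of which 6 were among the 15, and without Q192 0.5 replicate 2 it was 7, all among them. On date 1 arrays alone 0 genes passed by limma (1488 at an unadjusted p under 0.05), and on date 2 arrays alone Wdfy1 (-1.05, adjusted p = 0.0443) and Snord53 (+1.14, adjusted p = 0.0443) passed. All 15 kept their direction on both dates.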

How the data were processed

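RNA from cerebella was hybridised to Affymetrix Mouse Gene 1.0 ST arrays. Per the submitters' processing notes, the deposited values came from Affymetrix Expression Console 1.1 with RMA, and they were read as log2 levels, the base not being given in the sources used here. Of 35557 probe sets, the 21789 with 1 gene symbol were used (1621 had several and 12147 none), giving 19938 genes, with the probe set of highest mean kept for 999 of them. Genes with a mean level above 6.44, the 25th percentile, were kept, and leaving out 4 sex-linked genes gave 14949. Array medians were 7.37 to 7.54, and the number of arrays limits the precision.

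Limma 3.58.1 in R 4.3.3 fitted all 55 arrays with a mean for each of 12 groups, the array date (2 dates) as a covariate and arrays of 1 description number (36 numbers, of unstated meaning) as correlated (0.131), with a variance trend and 42 residual degrees of freedom. Benjamini-Hochberg adjustment ran over all genes within each of 5 comparisons, and genes passed at an adjusted p under 0.05. The fit was tested on simulated data. Over 104 pairs of arrays within groups none were identical (smallest root mean square difference 0.139). Figures and sequence searches used Python 3.11.15. The members and lists were chosen with earlier results of these data known. The text names all genes that passed, the Pon genes, Ache and Bche, for each list its passing members or the 2 of smallest p, the 3 of smallest p in each direction for each change of the difference, and a few cell type markers. Alternatives left out or added covariates, arrays and filters.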

Additional observations from a re-analysis of the deposited data

Results flagged for a closer look

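Of 100 gene and group pairs examined, which cover only part of the genes named above, 10 had 1 array far from the others of its group, and chance flags about 1 in 20 groups. KO 0.35 replicate 5 accounted for 5 of them. Its level was 11.1 in Hspa4l, 7.876 in Mrpl20, 7.45 in Plekhd1, 9.464 in Snapc1 and 7.896 in Snord53, each on the side of the Q192 arrays and away from the other 4 KO arrays at 0.35. Without it the difference at 0.35 was farther from 0 in 14 of the 15 genes called at 0.5, Gabra2 (-1.06 against -1.08) being the exception, and 11 of the 15 passed there in place of 9. In the 5 flagged genes this follows from the side on which the array lay. In Wdfy1 (8.71) and Gabra2 (9.64) the same array lay with the other KO arrays. It shares its description number with arrays of R192 at 0.35. The cause was not tested.

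The other flagged arrays were KO vehicle replicate 1 in Hspa4l (10.73, the others at 10.44 to 10.49), Q192 0.35 replicate 4 in Mrpl20 (8.883, the others at 8.21 to 8.33) and Q192 0.35 replicate 5 in Plekhd1 (7.155, the others at 7.58 to 7.74). At 0.5 they were Q192 replicate 2 in Zkscan3 (9.564, the others at 9.21 to 9.30) and Q192 replicate 1 in Pon2 (9.816, the others at 9.62 to 9.68).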

How the results depend on the processing

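The count of 15 genes at 0.5 was 176 without the number correlation, 1571 with only the 8 compared arrays, 27 with the level filter at the median, 54 with arrays centred on their medians, 2477 with array quality weights, 5 with arrays of 1 number averaged, 0 and 2 on dates 1 and 2, 9 with granule markers as a covariate, 200 without KO 0.35 replicate 5 and 76 without the 3 arrays of high Xist; without 1 compared array it ranged from 7 to 18. With the replicate number as a block it was 9, all among the 15. Lists without a passing gene in the main fit had some in others. With only the compared arrays 15 granule neuron, 24 ribosomal, 15 synaptic vesicle, 11 immediate early, 9 Purkinje cell and 6 microglia genes passed. With array quality weights the counts were 13, 31, 21, 8, 6 and 5 in that order. Same-numbered arrays of the 2 groups correlated at 0.33, 0.64 and -0.25 in their deviations, where all pairs ranged from -0.58 to 0.64. Deviations within a group sum to 0, so these values cannot decide whether the numbers pair the arrays. In vehicle the count of 15 was 6 with only the compared arrays, 7 with the median filter, 33 with weights, 1 and 4 on dates 1 and 2, 8 without high Xist, 21 without KO 0.35 replicate 5 and 7 to 18 without 1 compared array. At 0.35 the count of 10 was 19 without the number correlation, 1 with only the compared arrays, 102 with weights, 3 with numbers averaged, 0 on date 1 (745 at an unadjusted p under 0.05), 25 and 28 with brainstem or granule markers as a covariate, 35 with a covariate for the first principal axis (chosen after seeing the data) and 3 to 20 without 1 array. For the change of the difference, 0 became 905 without KO 0.35 replicate 5 and 0 to 1652 without 1 array against vehicle, and 3 against 0.35 with only the compared arrays. Among single genes, 4 values turned sign, none of them called: Pon1 at -0.0076 and Ache at 0.23 with the first principal axis, Ache at 0.043 on date 1 and Dcn at -0.059 on date 2. The causes were not tested. Few arrays limit all of these, and values near background (Snord53 in KO) may understate a difference.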
